A study of Arabidopsis thaliana with 48 samples.

Results

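The 9 genes described here encode the alternative respiratory chain of Arabidopsis thaliana mitochondria and 1 marker gene that accompanies it. They were chosen by name from the 32824 genes listed in both deposited expression tables. They are the alternative oxidases AOX1A (AT3G22370), AOX1B (AT3G22360), AOX1C (AT3G27620), AOX1D (AT1G32350) and AOX2 (AT5G64210), the type II NAD(P)H dehydrogenases NDA1 (AT1G07180), NDA2 (AT2G29990) and NDB2 (AT4G05020), and UPOX (AT2G21640), a mitochondrial protein named for its rise under oxidative stress. All 9 were found in both tables, and their levels were followed over 8 growth conditions of the wild type and of a bHLH35 mutant.

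RNA was sequenced from whole seedlings of the Columbia wild type, Col-0, and a mutant of the transcription factor gene bHLH35 (AT5G57150), with 3 libraries for each of 16 groups and 48 libraries in all. Control seedlings grew at 21 °C and 150 µE of light without salt. Salt (S) was 50 mM in the ½ MS medium from germination on, whereas high light (HL, 700 µE) and heat (HS, 33 °C) were given for 1.5 h to seedlings 7 days old. The other treatments were HL+HS, S+HL, S+HS and S+HL+HS. The labels name neither the kind nor the number of the bHLH35 alleles, nor how many seedlings made a library, and no statement separates the replicates as independent cultures. The p-values below therefore measure the spread between these libraries, which may be technical.

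The values are FPKM, which are fragments per kilobase of transcript, scaled to the mapped fragments of a library. The steps between low values gave depths of 19.3 to 43.9 M fragments per library. In the mutant libraries the bHLH35 transcript lay between 3.28 and 14.6 FPKM, below each of the Col-0 libraries, where the lowest value was 20.9. The 4 markers of green tissue summed to between 21234 and 32805 FPKM, with means in Col-0 of 29778 in Control and 22257 in S+HS, and those of flowers to at most 0.272. Seed storage genes reached 70.0 FPKM in Control replicate 3 of Col-0, where replicates 1 and 2 held 0.304 and 0.501. All 4 root markers used (CASP1, MYB36, EXPA7 and EXPA18) were called higher in each salt treatment of both genotypes, and 3 of 4 also in HL and in HL+HS. Their sum was 29.8 ± 3.43 FPKM in Control and 122 ± 28.04 in S of Col-0 (SD, n = 3), and 16.03 ± 1.12 and 121 ± 13.9 in the mutant. In whole seedlings a larger share of root tissue and more RNA of a gene per root cell cannot be told apart.

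In the main respiratory chain electrons pass from complex I through ubiquinone to complexes III and IV, and protons are pumped on the way. Alternative oxidase takes electrons from ubiquinol straight to oxygen, and so bypasses complexes III and IV. Type II dehydrogenases feed electrons to ubiquinone without pumping protons, NDA1 and NDA2 from the matrix side and NDB2 from the outer face of the inner membrane. AOX1A, NDB2 and UPOX are classic targets of mitochondrial retrograde signalling in Arabidopsis, by which a disturbed mitochondrion changes nuclear transcription through NAC factors such as ANAC013 and ANAC017. Those factors are known to bind the mitochondrial dysfunction motif.

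That motif was looked for in the 200 bases before each annotated gene start (RefSeq, assembly TAIR10.1). It was searched on both strands as CTTG, then 5 bases of any kind, then CAAG or CACG. It was present in 273 of the 27437 windows of nuclear protein-coding genes, which is 0.995%, and in 4 of the 9 windows examined here. The windows of NDA1, NDB2 and UPOX are shown as those with the motif, apart from that of AOX1B, whose transcript was nearly absent. Each is printed 5′ to 3′ on the strand of its gene, with the motif in capitals, and in UPOX also a G-box, CACGTG, which lies nearer the start and does not overlap the motif. The G-box was present in 5.64% of all windows, and among the members also in that of AOX2, at -114 to -109.
NDA1 chr1:2203904-2204103 (+ strand): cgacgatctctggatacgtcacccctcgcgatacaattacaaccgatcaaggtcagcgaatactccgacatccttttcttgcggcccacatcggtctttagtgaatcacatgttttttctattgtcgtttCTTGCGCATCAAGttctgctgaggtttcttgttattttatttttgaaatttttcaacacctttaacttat
NDB2 chr4:2572227-2572426 (+ strand): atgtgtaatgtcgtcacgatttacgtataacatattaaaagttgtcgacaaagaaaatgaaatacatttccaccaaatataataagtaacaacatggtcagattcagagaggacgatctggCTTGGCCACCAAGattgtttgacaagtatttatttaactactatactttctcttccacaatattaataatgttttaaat
UPOX chr2:9254178-9254377 (+ strand): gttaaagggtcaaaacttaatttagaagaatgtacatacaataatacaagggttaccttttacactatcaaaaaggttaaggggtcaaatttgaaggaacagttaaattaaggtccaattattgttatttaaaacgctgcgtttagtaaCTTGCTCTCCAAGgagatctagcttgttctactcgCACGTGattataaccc
Counted back from the base before the gene start, the motif spanned positions -70 to -58 in NDA1, -79 to -67 in NDB2 and -51 to -39 in UPOX. The search itself set the first and last 4 bases of a match, apart from the choice between its forms, and left the 5 bases between them free. In the 3 matches those 5 bases form a different string in each, as their sequences show when set one under another.
NDA1 match: CTTGCGCATCAAG
NDB2 match: CTTGGCCACCAAG
UPOX match: CTTGCTCTCCAAG
AOX1B match: CGTGTGCTACAAG
The match before AOX1B is the second form read on the opposite strand, at -118 to -106. AOX1A holds neither form in this window, which says only that these letters are not in it. Among companion genes, the motif was present in 3 of 10 other known mitochondrial dysfunction genes (CYP81D8, HSP23.5 and HSP23.6), in ANAC017, 1 of 12 retrograde regulators, and in NDB3, 1 of 9 other dehydrogenases, terminal oxidase and uncoupling protein genes. It was present in 0 of 14 cytochrome pathway genes and 0 of 4 genes of electron donors. These matches are descriptions of sequence and not binding sites shown by these data.

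AOX1A held nearly all alternative oxidase transcript of these seedlings. It stands on chromosome 3 (chr3:7906521-7908746, + strand, 4 exons). Its share of the summed FPKM of the 5 alternative oxidases lay between 96.3% and 99.9% in all 48 libraries. In Col-0, high light raised AOX1A to 2.01 times its Control mean, and the 3 salt combinations raised it to between 2.82 and 3.21 times. Salt or heat alone gave 1.20 and 1.14 times the Control mean, which did not pass the test.

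In Col-0, AOX1A stood at 56.2, 52.3 and 60.3 FPKM in Control, at 67.8, 66.5 and 68.8 in S, and at 80.4, 54.5 and 57.9 in HS. High light gave 91.4, 127 and 121 FPKM in HL, and 117, 110 and 135 in HL+HS. With salt the levels were 187, 172 and 145 FPKM in S+HL, 117, 232 and 193 in S+HS, and 144, 186 and 145 in S+HL+HS. The libraries thus fell into a low set (Control, HS and S), a middle set (HL and HL+HS) and a high set (the salt combinations), with a single S+HS library at the middle level. Neighbours within a set overlapped, whereas S lay wholly below HL and HL+HS wholly below S+HL and S+HL+HS.

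The log2 change of AOX1A from Control in Col-0, on the log2(FPKM + 1) scale, was 0.98 ± 0.19 (SE) in HL (limma, adjusted p = 0.0014). HL+HS was called higher too, at 2.14 times the Control mean (adjusted p = 0.000317), and so were S+HL (log2 change 1.55), S+HS (1.61) and S+HL+HS (1.47). Salt alone gave 0.26 (95% confidence interval -0.14 to 0.67, limma adjusted p = 0.384) and heat alone 0.17 (-0.23 to 0.57, adjusted p = 0.547). The heat value rested on HS replicate 1, without which it was -0.0002. Of all genes tested in Col-0, 17.7% were called with HL, 18.7% with S, 30.8% with HS and 31.3% with HL+HS. The share was 36% with S+HL, 44.9% with S+HS and 39.9% with S+HL+HS, so a call in a salt combination was common. In these combinations the green markers had medians of -0.31, -0.49 and -0.27 (log2), with 2, 4 and 2 of 4 called lower, and their part in the AOX1A and UPOX values was not tested.

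In the mutant, AOX1A stood at 43.5, 54.9 and 55.8 FPKM in Control, and at 110, 110 and 114 in HL. It reached 138, 183 and 181 FPKM in S+HS, with HS alone at 72.9, 46.2 and 59.2. AOX1A was called higher in the mutant under the same 5 treatments, by 1.11 (HL), 1.29 (HL+HS), 1.69 (S+HL), 1.68 (S+HS) and 1.70 (S+HL+HS) on the log2 scale (SE 0.17, limma). Salt alone gave 0.42 and heat alone 0.19, neither past the threshold. The green markers had medians of -0.27 (S+HL), -0.42 (S+HS) and -0.27 (S+HL+HS) in the mutant, with 2, 3 and 2 of 4 called lower. The background in the mutant was 17.4% of genes called with HL, 26.6% with S, 28.9% with HS and 35.4% with HL+HS. It was 38% with S+HL, 44.4% with S+HS and 44.3% with S+HL+HS.

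**Figure D1:**
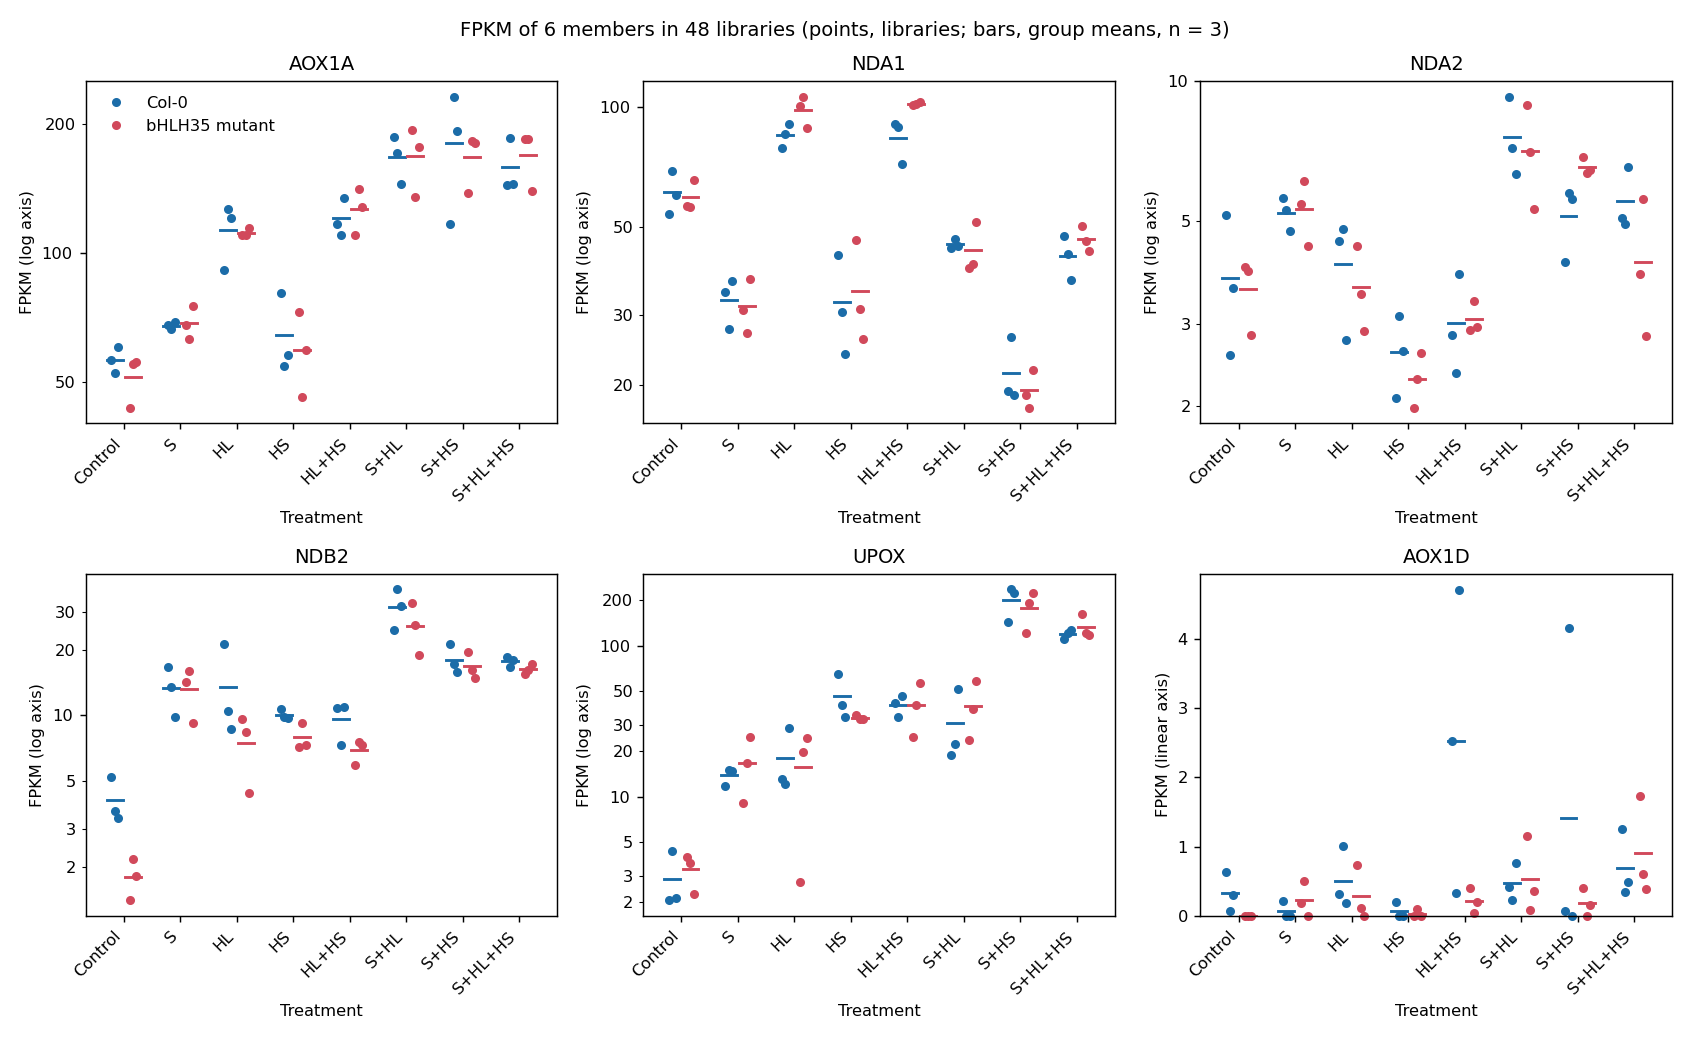
FPKM of AOX1A, NDA1, NDA2, NDB2 and UPOX (log axes) and of AOX1D (linear axis from 0) by treatment in 48 libraries of Col-0 (blue) and the bHLH35 mutant (red), with points for libraries and bars for group means (n = 3). Group means of AOX1A are above Control in HL and HL+HS and highest in the salt combinations. Salt added to HL was called for AOX1A only in the mutant, and salt added to HL+HS in neither genotype. NDA1 lies below Control in the 4 salt groups and in HS, and UPOX reaches 236 FPKM in S+HS.

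The other alternative oxidases were low. A floor of 3 fragments, which covers counting error only, equals 0.0739 to 0.169 FPKM for AOX1B, depending on the library, and AOX1B was at or under it in 23 of 24 Col-0 libraries and in all 24 of the mutant. AOX1B, which lies 944 bases upstream of AOX1A on the same strand (chr3:7904097-7905576), was listed at 0 in 46 of 48 libraries and reached 0.192 FPKM, about 4.89 fragments, in 1 Col-0 library. How fragments shared between this tandem pair were assigned is not given in the sources used here. AOX1C (chr3:10229045-10230707, - strand) did not exceed 0.860 FPKM and AOX2 (chr5:25683770-25685731, - strand) did not exceed 1.26.

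AOX1D, a close relative of AOX1A on chromosome 1 (chr1:11666886-11668690, - strand), was low but uneven between libraries. In Col-0 it stood at 2.52, 0.335 and 4.70 FPKM in HL+HS, and at 0.0668, 4.16 and 0 in S+HS. The Control libraries of Col-0 held 0.633, 0.0659 and 0.297 FPKM of it and those of the mutant listed it at 0. Libraries of 1 group thus differed more than the group means did. Its change from Control in HL+HS of Col-0 was 1.19 ± 0.50 (log2 ± SE, limma adjusted p = 0.0758), and it passed the filter on low values in Col-0 but not in the mutant. In HL+HS against HS of Col-0 it was called higher, by 1.50 (limma adjusted p = 0.0411). That call was lost, at 1.03 to 1.58, without any of HS replicates 1, 2 and 3 or HL+HS replicates 1 and 3. It was also lost with no filter on low values and with the replicate block.

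NDA1 moved in opposite directions under light and under salt or heat. It encodes an internal dehydrogenase whose transcript is known to depend on light (chr1:2204104-2207099, + strand, 8 exons). Salt or heat alone brought it to between 0.531 and 0.582 of its Control mean, and salt with heat to 0.353 in Col-0 and 0.328 in the mutant. High light gave 1.39 times the Control mean in Col-0, not past the threshold, and 1.66 times in the mutant. It was the only tested member called lower in any treatment against Control.

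In Col-0, NDA1 stood at 53.7, 69.1 and 60.2 FPKM in Control, 34.4, 27.7 and 36.6 in S, and 42.6, 30.6 and 23.98 in HS. S+HS gave 19.3, 26.4 and 18.9 FPKM, the lowest group. HL gave 78.9, 85.8 and 90.5, HL+HS 90.4, 88.8 and 72.0, S+HL 44.3, 46.7 and 44.7, and S+HL+HS 47.4, 42.8 and 36.9. Both high light groups without salt lay wholly above Control, and the 5 groups with salt or with heat in normal light lay wholly below it. How many of all genes separate from Control in this way was not counted, for NDA1 or for the other members. S and HS overlapped, as did HL with HL+HS and S+HL with S+HL+HS. In the mutant the same groups lay wholly above and wholly below Control, with 56.4, 56.2 and 65.4 FPKM in Control, 101, 106 and 88.4 in HL, 101, 102 and 103 in HL+HS, and 18.9, 17.6 and 21.9 in S+HS.

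NDA1 fell by 0.87 with S, 0.92 with HS and 1.47 with S+HS in Col-0, and by 0.90, 0.80 and 1.56 in the mutant (log2, SE 0.17 and 0.16, limma adjusted p at most 0.00114 in these contrasts). In the mutant it rose by 0.72 in HL (adjusted p = 0.00372) and by 0.77 in HL+HS (adjusted p = 0.000901). In Col-0 the change was 0.48 in HL (limma adjusted p = 0.055) and 0.45 in HL+HS (adjusted p = 0.0471). The latter call was lost, at values from 0.36 to 0.45, without any single library among Control replicates 1 and 3, HL+HS replicates 1 and 2, HL replicates 2 and 3, HS replicate 2, S replicate 1, S+HL replicates 1, 2 and 3, and S+HL+HS replicate 2. It was also lost with no filter on low values, with scaling to a common FPKM sum and with no variance trend.

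In S+HL the change of NDA1 was -0.42 in Col-0 (adjusted p = 0.0593) and -0.44 in the mutant (adjusted p = 0.0343, limma). The mutant call was lost without any single library among Control replicates 1, 2 and 3 and S+HL replicates 1 and 2, at -0.48 to -0.37. With scaling to a common FPKM sum that call was lost too, at -0.40. In S+HL+HS the change of NDA1 was -0.52 in Col-0 (limma adjusted p = 0.0195), a call lost at -0.42 without Control replicate 2 or S+HL+HS replicate 3, and -0.34 in the mutant (adjusted p = 0.086). The means of NDA1 were thus above Control where high light came without salt and below it where salt was present, in both genotypes. Of the 4 green markers, 2 to 4 were called lower in the salt combinations, and in S 0 in Col-0 and 1 in the mutant. The part of green or root tissue in the NDA1 values was not tested.

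NDA2, the other internal dehydrogenase (chr2:12793320-12796085, - strand), was lower and changed less. In Col-0 it stood at 5.15, 2.58 and 3.60 FPKM in Control and at 9.27, 7.17 and 6.31 in S+HL, where no S+HL library overlapped Control. It rose by 0.87 ± 0.21 there (log2 ± SE, limma adjusted p = 0.00274) and by 0.81 in the mutant, where S+HS was also called (0.73, adjusted p = 0.00401). In the 6 other Col-0 contrasts its changes ran from -0.38 (HS) to 0.48 (S+HL+HS) without passing the threshold. The ratio of NDA1 to NDA2 was 17.99 ± 8.25 in Control, 29.4 ± 9.77 in HL+HS and 4.24 ± 0.741 in S+HS of Col-0 (FPKM ratio, mean ± SD, n = 3). There the ratios of the Control libraries (10.4 to 26.8) overlapped those of HL+HS (18.7 to 37.8). In the mutant the ratio was 17.2 ± 5.05, 33.2 ± 2.62 and 2.97 ± 0.366 in the same order.

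NDB2, the external dehydrogenase (chr4:2572427-2576599, + strand), rose in all 7 treatments of both genotypes and was highest under salt with high light. In Col-0 it stood at 5.22, 3.63 and 3.38 FPKM in Control, and at 24.7, 37.98 and 31.9 in S+HL, which is 7.74 times the Control mean. S gave 16.6, 13.4 and 9.84 FPKM, and HL 21.4, 10.5 and 8.66. S+HS gave 21.2, 17.2 and 15.7 FPKM, and HL+HS 10.8, 7.30 and 10.9. No library of any treatment overlapped Control, while HL, HS, HL+HS and S overlapped with each other.

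The log2 changes of NDB2 in Col-0 were 1.48 (S), 1.43 (HL), 1.14 (HS) and 1.07 (HL+HS), and with salt 2.68 (S+HL), 1.91 (S+HS) and 1.90 (S+HL+HS), each with a standard error of 0.25 (limma adjusted p at most 0.00261). In the mutant they ran from 1.50 in HL+HS to 3.24 in S+HL, with adjusted p at most 0.000125. Root markers were higher beside NDB2. In the salt treatments the 4 root markers had median changes of 1.89 to 2.29 in Col-0 and 2.71 to 2.81 in the mutant (log2). Without salt in Col-0 their medians were 1.09 (HL), 0.65 (HS) and 1.22 (HL+HS), with 3, 2 and 3 of 4 called higher. In the mutant they were 1.20, 0.43 and 1.01, with 3, 0 and 3 of 4 called, beside NDB2 changes of 1.54, 1.67 and 1.50. The root marker sums without salt were 68.01, 53.9 and 80.9 FPKM in Col-0 against 29.8 in Control, and 39.9, 21.1 and 37.4 FPKM in the mutant against 16.03. The part of root tissue in the NDB2 values was not tested.

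UPOX (chr2:9254378-9255743, + strand, 3 exons) had the widest range of the members. It was raised by every treatment, and its highest mean was that of heat on salted medium. In Col-0 it stood at 2.06, 4.40 and 2.15 FPKM in Control, and at 144, 236 and 225 in S+HS, which is 70.2 times the Control mean. HS alone gave 64.8, 40.5 and 33.5 FPKM, S alone 11.8, 14.99 and 14.9, and S+HL+HS 110, 122 and 127. HL gave 13.1, 12.1 and 28.7, HL+HS 41.5, 33.8 and 46.4, and S+HL 18.8, 22.4 and 51.6. No treated library of Col-0 overlapped Control. The S+HL+HS group lay above HS and HL+HS and below all libraries of S+HS.

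In Col-0, UPOX rose by 1.99 (S), 2.24 (HL), 3.61 (HS), 3.47 (HL+HS), 2.96 (S+HL), 5.73 (S+HS) and 5.01 (S+HL+HS) on the log2 scale (SE 0.34, limma adjusted p at most 0.000422). In the mutant it rose by 1.97, 1.56, 3.01, 3.22, 3.18, 5.36 and 4.97 in the same order (SE 0.52, adjusted p at most 0.0419). The HL value of the mutant rested on its libraries unequally, at 2.71, 19.7 and 24.7 FPKM against 4.01, 3.65 and 2.27 in Control. Without HL replicate 1 it was 2.44 (adjusted p = 0.000179), and the call was lost, at 1.05 to 1.68, without HL replicate 2 or 3 or without any of Control replicates 1, 2 and 3. The call was also lost with no filter on low values and when only the contrasted groups were fitted.

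Replicates in high light also differed in HSP23.6, a mitochondrial small heat shock protein gene of the same signalling group. It read 25.04, 71.2 and 369 FPKM in HL and 3.57, 69.5 and 199 in S+HL of Col-0, and 8.36, 160 and 390 in HL and 6.59, 110 and 338 in S+HL of the mutant. In each of these 4 groups the library with the most HSP23.6 was also the one with the most UPOX. The part of this difference between libraries in the UPOX values was not tested.

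**Figure D2:**
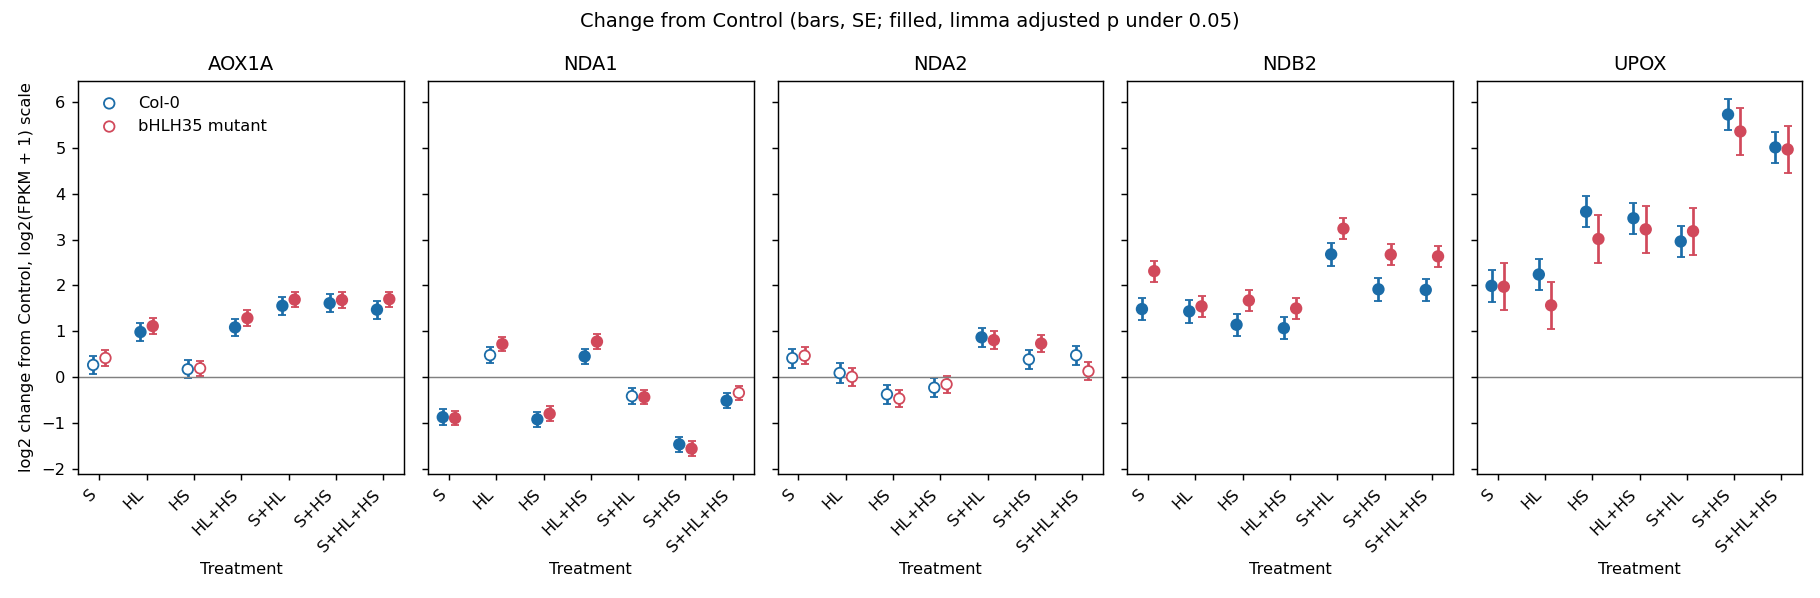
Change from Control on the log2(FPKM + 1) scale for 5 members in 7 treatments, Col-0 in blue and the mutant in red, with bars of 1 SE and filled points for a limma adjusted p under 0.05. NDB2 and UPOX points are filled in all 7 treatments of both genotypes, AOX1A in 5, and NDA1 lies on both sides of 0.

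**Figure D3:**
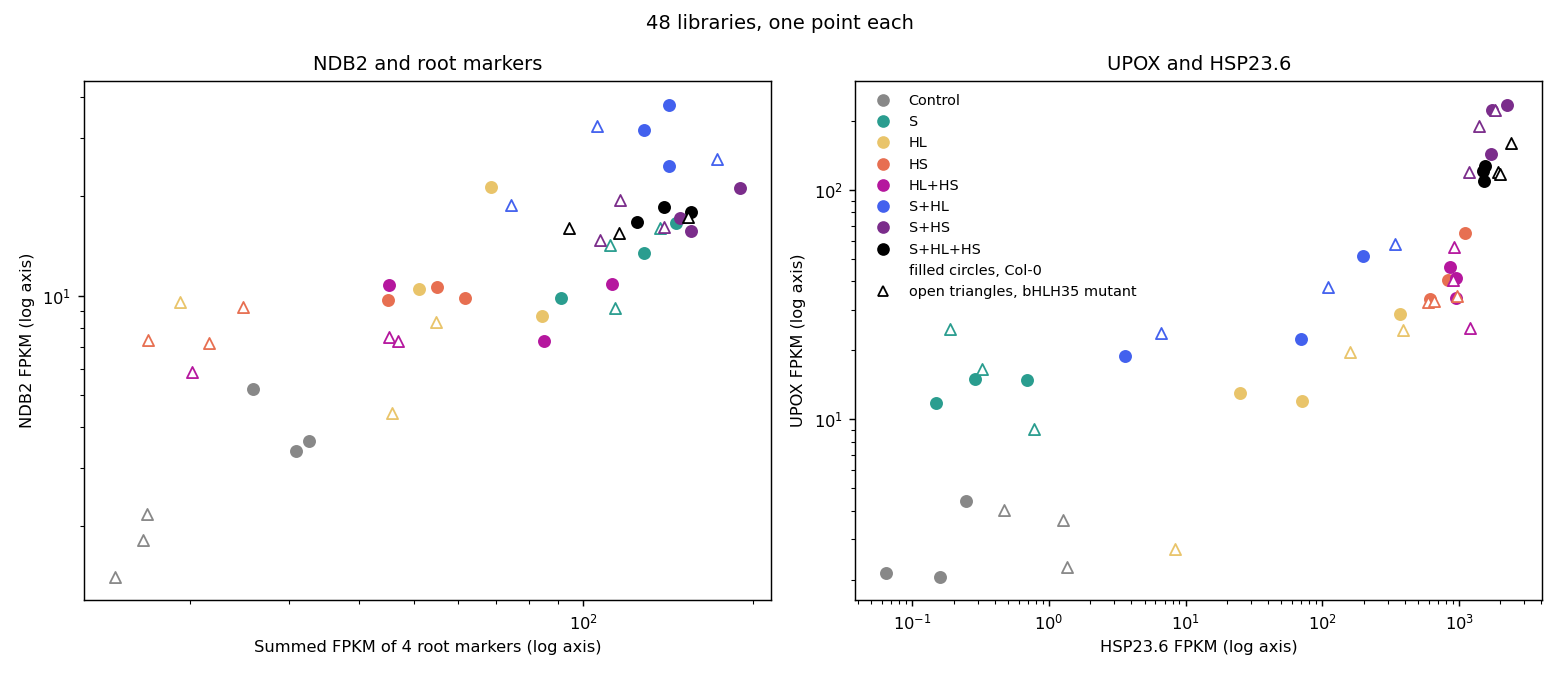
NDB2 FPKM against the summed FPKM of 4 root markers (left) and UPOX FPKM against HSP23.6 FPKM (right) in 48 libraries, all axes logarithmic, coloured by treatment, with filled circles for Col-0 and open triangles for the mutant. Mutant Control libraries have the lowest values on both axes on the left, near 16.03 FPKM of root markers, and S libraries on the right have 9.08 FPKM or more of UPOX with HSP23.6 under 1 FPKM.

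Over the 9 members, 25 changes against Control were called in Col-0 (21 higher and 4 lower) among 42 tests of 6 members, and 27 in the mutant (23 higher and 4 lower) among 35 tests of 5 members. By treatment, 3 of 6 tested members were called in S, HL and HS of Col-0 and 4 of 6 in the combinations, beside 17.7% to 44.9% of all genes. In the mutant, 3 to 5 of 5 were called in each treatment, beside 17.4% to 44.4%. The called members stood at 1 FPKM or more in all 24 libraries of each genotype. AOX1D reached 1 FPKM in 5 Col-0 libraries and was not called against Control. The members were chosen with earlier results of these data known, so nothing is read from these counts. AOX1B and AOX1C passed the filter on low values in no fit, AOX1D only in Col-0 and in the fit of all libraries, and AOX2 only in the latter. Of these 52 calls, all but 4 (NDA1 in HL+HS and in S+HL+HS of Col-0, NDA1 in S+HL and UPOX in HL of the mutant) passed the threshold under each alternative tried. All contrasts of a genotype share its 3 Control libraries.

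Salt was set against the same light and temperature without salt, to show what it added. Of all genes, 13.8% were called in S+HL against HL, 21.7% in S+HS against HS and 18.8% in S+HL+HS against HL+HS in Col-0, and 21.4%, 23.8% and 24.8% in the mutant. AOX1A rose by 1.44 ± 0.19 in S+HS against HS of Col-0 and by 1.49 ± 0.17 in the mutant (log2 ± SE, limma adjusted p = 6.23e-05 and 5.75e-06). In S+HL against HL it gained 0.57 in Col-0 (adjusted p = 0.0555) and 0.58 in the mutant (adjusted p = 0.0188). The mutant call was lost at 0.38 with median-of-ratios scaling, and at 0.47 to 0.57 without S+HL replicate 1 or 3 or HL replicate 2. In S+HL+HS against HL+HS the values were 0.39 and 0.41, not past the threshold.

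UPOX gained 2.12 from salt under heat in Col-0 and 2.35 in the mutant (limma adjusted p = 0.000276 and 0.0026). In S+HL+HS against HL+HS it gained 1.55 in Col-0 and 1.74 in the mutant (limma adjusted p = 0.00523 and 0.0192). The mutant call was lost without HL+HS replicate 1 or S+HL+HS replicate 1 and with median-of-ratios scaling. In S+HL against HL of Col-0 its value was 0.72 (adjusted p = 0.172), not past the threshold. In the mutant UPOX gained 1.62 there (adjusted p = 0.0311). This last call was lost without HL replicate 1 (0.74) or S+HL replicate 2 or 3. It was also lost with no filter on low values, with median-of-ratios scaling and when only the contrasted groups were fitted. NDA1 lost expression with salt, with changes of -0.90 (S+HL against HL) and -0.97 (S+HL+HS against HL+HS) in Col-0, and of -1.16 and -1.12 in the mutant. In S+HS against HS it changed by -0.55 in Col-0 and by -0.76 in the mutant (limma adjusted p = 0.0256 and 0.0017). Both of these calls were lost when only the contrasted groups were fitted. That of Col-0 was also lost without HS replicate 1 (-0.33) or 2 (-0.57) or S+HS replicate 1 (-0.48) or 3 (-0.46). NDB2 gained 1.24 from salt under high light in Col-0, a call lost when only the contrasted groups were fitted, and 1.70 in the mutant. In S+HL+HS against HL+HS of the mutant it gained 1.14 (adjusted p = 0.00175). NDA2 gained 0.80 in S+HL against HL and 1.20 in S+HS against HS of the mutant (limma adjusted p = 0.00619 and 0.000173). In Col-0 it gained 0.78, 0.76 and 0.71 from salt with HL, HS and HL+HS (adjusted p = 0.0172, 0.0135 and 0.0245). The first call was lost without S+HL replicate 1 (0.64) or HL replicate 3 (0.58) and when only the contrasted groups were fitted. The second was lost without HS replicate 1 (0.65) or S+HS replicate 2 (0.69). The third was lost without HL+HS replicate 1 (0.69) or 2 (0.59) or S+HL+HS replicate 3 (0.60), and at 0.57 with median-of-ratios scaling. Of 16 called changes of added stress in Col-0 and 15 in the mutant, 9 and 4 missed the threshold under some alternative.

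High light added to heat raised NDA1 by 1.37 ± 0.17 in Col-0 and 1.57 ± 0.16 in the mutant, and AOX1A by 0.91 and 1.10 (HL+HS against HS, log2 ± SE, limma adjusted p at most 0.00358). Of all genes, 19.5% and 20.3% were called there. The values for UPOX were -0.14 and 0.21 and for NDB2 -0.07 and -0.17, with 95% confidence intervals within -0.87 and 1.29. Heat added to high light gave AOX1A 0.10 and 0.17 and NDA1 -0.03 and 0.05, where 8.06% and 6.17% of all genes were called. UPOX gained 1.23 in Col-0 (limma adjusted p = 0.031) and 1.66 in the mutant (adjusted p = 0.0605). The Col-0 call was lost without HL replicate 1 or 2 or HL+HS replicate 1, 2 or 3, at 1.01 to 1.35. It was also lost with no filter on low values and when only the contrasted groups were fitted.

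Each combination was then compared with what its single stresses add up to in log2 units. The share of all genes called for a departure was 9.28% (HL+HS), 0.246% (S+HL), 0.231% (S+HS) and 2.43% (S+HL+HS) in Col-0. In the mutant it was 4.03%, 0.111%, 0.256% and 3.05%. Among members, 5 departures were called in Col-0 and 3 in the mutant, each of them with HL+HS or S+HL+HS. UPOX fell short of the sum in HL+HS of Col-0, where its response of 3.47 stood against a sum of 5.85 (departure -2.38 ± 0.48, limma adjusted p = 0.0049). In the mutant the sum was 4.58 and the departure -1.35 (adjusted p = 0.33).

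NDB2 also fell short of the sum, with HL+HS departures of -1.51 ± 0.35 (Col-0) and -1.72 ± 0.32 (mutant), and S+HL+HS departures of -2.16 ± 0.49 and -2.89 ± 0.46 (log2 ± SE, limma adjusted p = 0.0105, 0.00535, 0.0249 and 0.0037). Both Col-0 calls were lost when only the contrasted groups were fitted, and that of S+HL+HS also without S replicate 1, Control replicate 2 or Control replicate 3, at -1.96 to -2.04. UPOX in S+HL+HS of Col-0 departed by -2.82 ± 0.68 (limma adjusted p = 0.0333). That call was lost, at -2.93 to -2.45, without any single library among Control replicates 1 and 3, S replicates 1 and 2, HS replicate 2, HL replicate 3, and S+HL+HS replicates 1 and 2. It was also lost with no filter on low values.

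NDA1 stood above the sum in HL+HS, where single responses of opposite sign met. The sum was -0.44 in Col-0 and -0.08 in the mutant, and the departures were 0.90 ± 0.24 and 0.86 ± 0.22 (limma adjusted p = 0.0228 and 0.036). The Col-0 call was lost, at 0.70 to 0.87, without HL replicate 1, Control replicate 2, HS replicate 2 or 3, or HL+HS replicate 2. The mutant call was lost, at 0.68 to 0.89, without any of the Control or HL+HS libraries, HS replicate 2 or 3, or HL replicate 3. Both calls were also lost when only the contrasted groups were fitted, and that of the mutant at 0.96 with median-of-ratios scaling.

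AOX1A in S+HS exceeded the sum of its small single responses in both genotypes, by 1.18 (95% confidence interval 0.60 to 1.75) and by 1.07 (0.58 to 1.56). With an adjusted p of 0.0646 and 0.0612 by limma, neither passed the threshold. In the other combinations AOX1A lay within 0.31 of the sum in both genotypes.

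**Figure D4:**
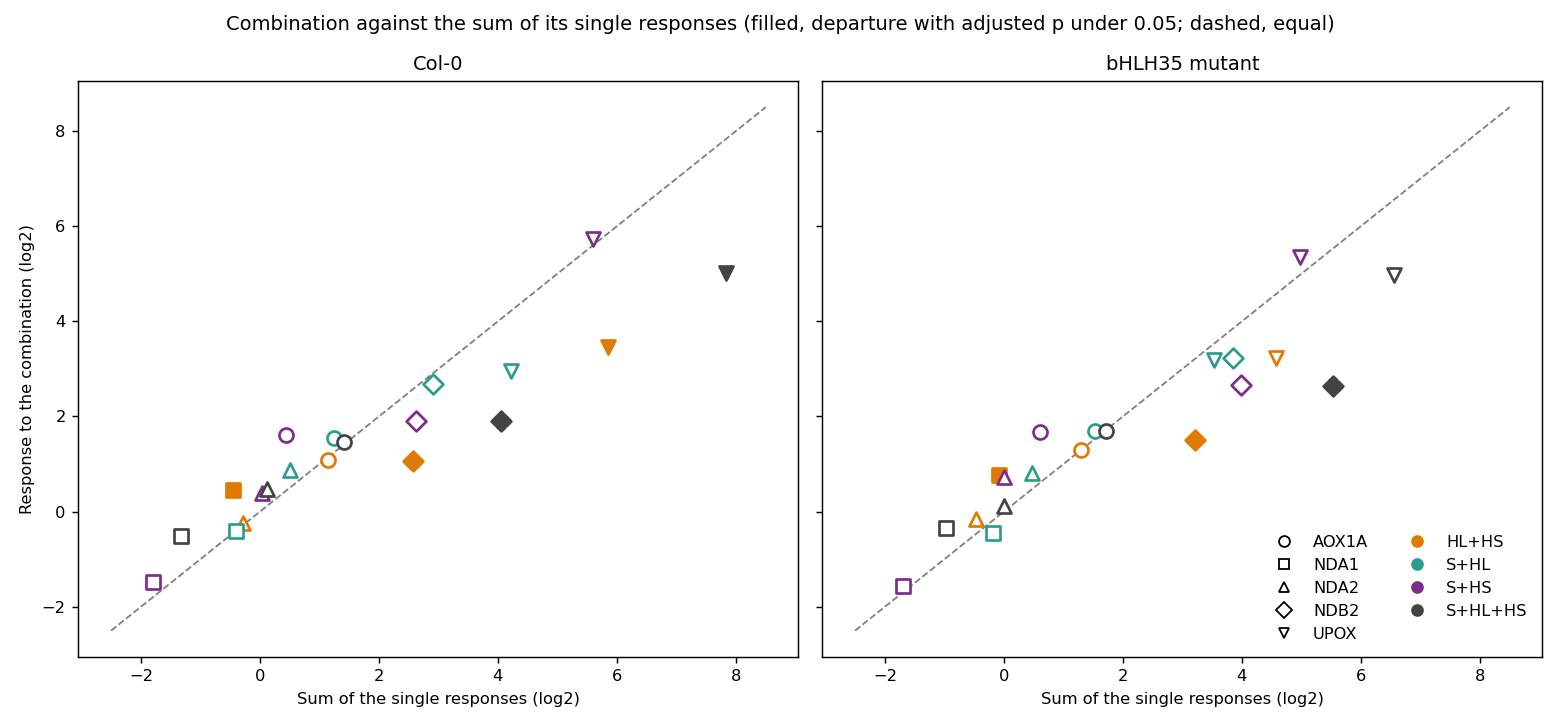
Response to a combination (y axis, log2) against the sum of the responses to its single stresses (x axis, log2) for 5 members in Col-0 (left) and the mutant (right), with the shape showing the gene, the colour the combination, and filled symbols a departure called by limma. Filled UPOX and NDB2 symbols lie below the dashed line of equality, and the filled NDA1 symbols of HL+HS lie above it.

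Between genotypes, no member was called. In the 7 differences of responses, 0 of 49 tests on 7 members passed by limma, with 3 at an unadjusted p under 0.05. Of all genes, 0.0234% were called in the HL difference, 0.00468% in that of S+HL+HS and 0% in the other 5. In the mutant against Col-0 within each of 8 treatments, 0 of 56 tests passed, again with 3 at an unadjusted p under 0.05. The share of all genes called there was 0.206% (Control), 0.0234% (S), 0.417% (HL) and 0.0749% (HS), and in combinations 0.136% (HL+HS), 0.192% (S+HL), 0.0187% (S+HS) and 0.0234% (S+HL+HS). Each genotype has its own deposited table, so genotype and table cannot be told apart.

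The lowest unadjusted p among members belonged to NDB2 in Control, at 5.22, 3.63 and 3.38 FPKM in Col-0 and 1.41, 2.18 and 1.82 in the mutant, without overlap. The difference was -0.85 (95% confidence interval -1.35 to -0.35, limma adjusted p = 0.159). With a pseudocount of 0.1 in place of 1 it was -1.13 and passed the threshold (adjusted p = 0.0424). It also passed, at -0.85, with a replicate block shared by both genotypes within a treatment, chosen after seeing the data (limma adjusted p = 0.0437). In HL it was -0.74 (adjusted p = 0.275) and in S -0.02 (adjusted p = 1). The root marker sum stood beside it at 29.8 and 16.03 FPKM in Control, 68.01 and 39.9 in HL, and 122 and 121 in S, for Col-0 and the mutant. The part of root tissue in this difference was not tested.

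AOX1D in HL+HS stood at 2.52, 0.335 and 4.70 FPKM in Col-0 and at 0.404, 0.0343 and 0.202 in the mutant, which overlap. That difference was -1.31 (95% confidence interval -2.16 to -0.47) and did not pass the threshold (limma adjusted p = 0.185). For UPOX the differences of responses ran from -0.67 in HL to 0.22 in S+HL, each with a standard error of 0.65. The response of NDB2 to S was 0.83 larger in the mutant (95% confidence interval 0.13 to 1.53), with a limma adjusted p of 1.

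The genes whose pattern over the 8 treatment means was most like each member were taken from 4840 genes with enough level and range. Likeness is the smaller of the Pearson correlations in Col-0 and in the mutant, given as a description because the means come from the same libraries. For AOX1A they were AT5G64230 (0.98), CYP81D8 (0.97), a cytochrome P450 gene of the mitochondrial dysfunction group, and GPX2 (0.96), a glutathione peroxidase. For UPOX they were AT5G65750 (0.98), annotated as the E1 component of 2-oxoglutarate dehydrogenase, AT4G00090 (0.98) and VDAC3 (0.98), a porin of the outer mitochondrial membrane. For NDA1 they were AT1G64500 (0.96), annotated as a glutaredoxin family protein, CYP71A22 (0.96) and FBA1 (0.96), a plastid aldolase.

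For NDB2 the closest genes were SPS2F (0.97), a sucrose phosphate synthase, ABCG6 (0.97) and AT4G36610 (0.97), and for NDA2 they were AT3G11420 (0.95), RBOH F (0.94), an NADPH oxidase, and AT4G01895 (0.93). Between members, the correlation of AOX1A with NDB2 was 0.78 in Col-0 and 0.73 in the mutant, and that with UPOX 0.72 and 0.76. NDA1 had negative correlations with each of the other 4, between -0.52 and -0.09 (Col-0) and between -0.49 and -0.03 (mutant).

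Genes around the alternative chain were counted in lists of related function. Of 10 other mitochondrial dysfunction genes, 10 rose in S+HL in both genotypes, with a median log2 change of 1.94 (Col-0) and 2.06 (mutant) against medians over all genes of 0.09 and 0.11. With S+HS and with S+HL+HS, 8 rose in each genotype, and 1 fell in S+HS of Col-0. In Col-0, 6 rose with S, 4 with HL and 4 with HL+HS, where 1 fell. In HS, 2 rose and 2 fell in Col-0, with a median of 0.16. The shares of all genes called in these treatments are those given for AOX1A. CYP81D8 rose by 2.67 in S+HL and 2.58 in S+HS of Col-0, with values of 0.42 for S and 0.16 for HS that did not pass the threshold. HSP23.5, a mitochondrial small heat shock protein, rose by 6.58 in S+HS and 5.21 in HS.

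Of 12 retrograde regulators, 10 were tested. In Col-0, 1 rose with S, 3 with HL, 4 with HS and 3 with HL+HS, and 4, 4 and 5 in S+HL, S+HS and S+HL+HS. Called lower were 2 in HS, 1 in HL+HS and 1 in S+HL+HS. Medians ran from 0.04 (S) to 0.60 (S+HL), against -0.09 to 0.10 over all genes. In the mutant 1 to 4 rose in each treatment, and 1 fell in HL, 1 in HS and 2 in HL+HS. Of all genes, 17.7% to 44.9% were called by treatment in Col-0 and 17.4% to 44.4% in the mutant. ANAC013 rose in all 7 treatments of Col-0, from 0.54 in S to 2.25 in S+HS, where its levels were 37.95, 63.1 and 49.8 FPKM against 8.92, 10.3 and 9.56 in Control. ANAC017, whose protein is held at the endoplasmic reticulum until released, stayed within -0.24 and 0.09 in Col-0, with only HS called (lower). RCD1, a known partner of these NAC factors, rose by 1.05 in S+HS of Col-0.

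The cytochrome pathway, which the alternative oxidase bypasses, was represented by 14 genes. In Col-0, 12 rose with S, 13 with S+HL, 10 with S+HS and 11 with S+HL+HS, with medians of 0.48 to 0.60 against 0.07 to 0.10 over all genes, and 0 were called lower in these by limma. Without salt, 5 rose with HL, 6 with HS and 5 with HL+HS, with medians of 0.15 to 0.28, and 1 fell with HL+HS. Of all genes, 18.7% were called with S, 36% with S+HL, 44.9% with S+HS and 39.9% with S+HL+HS. Without salt the shares were 17.7% (HL), 30.8% (HS) and 31.3% (HL+HS). QCR7-2, a subunit of complex III, rose by 5.15 in HS and 5.66 in S+HS of Col-0, with 0.07 in S. CYTC-2, which encodes cytochrome c, rose in all 7 treatments, from 0.68 in S to 2.33 in S+HS.

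Of 9 other alternative dehydrogenases, plastid terminal oxidase and uncoupling proteins, 7 were tested. In Col-0, 1 rose with S, 2 with S+HL and 2 with S+HS, and 1 fell with HS, 3 with HL+HS, 1 with S+HS and 1 with S+HL+HS. Their medians ran from -0.29 to 0.30, against -0.09 to 0.10 over all genes. Of all genes, 17.7% to 44.9% were called by treatment in Col-0. In HL+HS of the mutant 5 fell, with a median of -0.38, where 35.4% of all genes were called and the median over all genes was -0.15. DIC1, a dicarboxylate carrier of the uncoupling protein family, rose by 0.99 in S, 1.45 in S+HL and 0.84 in S+HS. NDC1, a type II dehydrogenase found also in plastids, fell by 0.24 in HS and 0.32 in S+HS. Of 4 genes that bring electrons from amino acid breakdown to ubiquinone, 3 fell in HS of Col-0 and 4 in the mutant, with medians of -0.62 and -0.71 where 30.8% and 28.9% of all genes were called. In the other Col-0 treatments 0 to 2 of them fell (2 in S+HL), and 1 rose in S. In those of the mutant 1 or 2 fell, and 1 rose in S+HL. ETFQO, the electron transfer flavoprotein oxidoreductase, fell by 1.29 in S+HL+HS and by 0.98 in HS of Col-0. Lists and members share the same libraries and Control groups.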

How the data were processed

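Total RNA of whole seedlings was sequenced as paired-end reads, trimmed with Trim Galore 0.6.4 and examined with FastQC 0.11.9, per the series' design text in the labels. The submitters' processing notes name HISAT2 2.2.1 and TAIR10. The authors deposited FPKM values, with 1 table per genotype. The FPKM tool, annotation, strand setting and whether both tables were normalized together are not given in the sources used here. Fold changes and tests were computed here from the deposited FPKM.

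Libraries were grouped by title. Lines of 2 identifiers listed more than once were summed. Depth was estimated from 12870 genes of 1 transcript with at least 800 spliced bases. With a tolerance of 0.1, between 90.0% and 96.4% of the low values of a library were whole numbers of fragments. Floors cover counting error only. No pair of libraries was near identical.

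limma 3.58.1 (R 4.3.3) was run on log2(FPKM + 1), which understates changes of low genes, with a variance trend, tested on simulated data. A gene entered a fit if 3 or more of its libraries reached 1 FPKM, and two-sided p-values were adjusted over all of them by the Benjamini-Hochberg method, called at 0.05. Each genotype was fitted alone over 24 libraries (Col-0, 20744 genes, and mutant, 20675 genes), and genotypes were compared over 48 libraries (21359 genes). Named genes are the members, AT5G57150, genes of the lists, and for each member with a group mean of at least 5 FPKM and a range of at least 1 (log2) the 3 genes most like it. Members and lists were chosen with earlier results of these data known. Gene names and sequences are RefSeq TAIR10.1, whose nuclear chromosome sequences are those of TAIR10. Sequences of proteins were not used here. Of the root markers planned, 1 is not reported here and is left out of the sums. Alternatives were another pseudocount, filter, scaling, variance model, replicate block and set of groups, and leaving out each library.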

Additional observations from a re-analysis of the deposited data

How the results depend on the processing

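The 91 called member changes kept their direction under all alternatives, and 22 of them missed the threshold under at least 1. By setting, 11 were lost when only the contrasted groups were fitted, 6 with no filter, 6 with median-of-ratios scaling, 2 with a common FPKM sum, 1 with no variance trend, 1 with the replicate block and 0 with a pseudocount of 0.1 or a mean of at least 5 FPKM. Of 190 values not called, 90 changed sign and 19 passed the threshold under some alternative. AOX1A in HS of Col-0, which was not called, ranged from -0.0002 without HS replicate 1 to 0.2762 without HS replicate 2.

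Departures called in Col-0 numbered 5, and 2 when only the contrasted groups were fitted. A pseudocount of 0.1 gave 1 call in the mutant against Col-0, NDB2 in Control, in place of 0. The cause was not tested. Leaving out each library in turn gave 24 to 28 calls against Control in Col-0 and 25 to 29 in the mutant, 13 to 16 of added stress in each, and 0 throughout between genotypes. Departures ranged from 3 to 6 in Col-0 (3 without S replicate 1, HS replicate 2 or Control replicate 2 or 3) and from 2 to 6 in the mutant, against 3 with all libraries (5 without HL replicate 1 and 6 without HS replicate 1).

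Called values that moved by over 1.5 times were NDA1 in S+HS against HS of Col-0 (-0.55, and -0.33 without HS replicate 1), AOX1D in HL+HS against HS of Col-0 (1.50, and 3.62 with a pseudocount of 0.1), UPOX in HL of the mutant (1.56, and 2.44 without HL replicate 1), UPOX in S+HL against HL of the mutant (1.62, and 0.74 without HL replicate 1) and AOX1A in the same contrast (0.58, and 0.38 with median-of-ratios scaling). Median-of-ratios scaling moved the median of all genes by over 0.1 in 11 of 47 contrasts, by at most 0.18. They were S and S+HL+HS against HL+HS of Col-0, and in the mutant S, HL+HS, S+HL, S+HS and all 5 contrasts of added stress.

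Between each treatment and the Control of its genotype, the correlations of deviations of same-numbered libraries lay between -0.12 and 0.10 (Col-0) and between -0.10 and 0.09 (mutant), with 0 of 21 pairs over 0.1 in each. Between genotypes within a treatment they lay between -0.05 and 0.43, with 12 of 24 pairs over 0.1 and 15 Col-0 libraries closest to their own number. No treatment had all its pairs over 0.1, and the main tests did not take the numbers as pairs. Single pairs reached 0.43 (HS replicate 1), 0.37 (HL replicate 1) and 0.32 (HL replicate 3). The main comparison of genotypes makes no allowance for them. A replicate block shared by both genotypes within a treatment, chosen after seeing the data, gave 1 call in place of 0 in the mutant against Col-0 (NDB2 in Control, adjusted p = 0.0437 by limma) and 0 in the differences of responses. With the replicate block within each genotype, calls numbered 25 and 29 against Control, 15 and 16 of added stress, 5 and 3 departures, and 0 between genotypes. Depth limits AOX1B, AOX1C, AOX1D and AOX2, whose changes were not detectable where they stood at the floor.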
